A study of Homo sapiens with 20 samples.

Results

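Cytochromes P450 and UDP-glucuronosyltransferases were followed as a group of 65 genes among the 26038 gene symbols of the count table. They were chosen by symbol alone: 46 symbols of the P450 form (CYP, a family number, letters and a member number) and 19 of the UGT1, UGT2 or UGT8 form, with the cholesterol synthesis enzyme CYP51A1 left out. P450s are haem enzymes that insert oxygen into drugs, steroids, vitamins and fatty acids. UDP-glucuronosyltransferases then link glucuronic acid to the products, to bilirubin and to steroids, which makes them soluble enough to leave the cell. Both families are best known from hepatocytes, where nuclear receptors set the levels of many of them, and hepatoma lines often keep only some of them.

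MHCC-97H, a human liver cancer line, is the cell named in the labels, and all groups shared a water bath of 15 minutes followed by 24 hours in an incubator. NFS1 libraries came from cells labelled as knocked down for NFS1 by shRNA and held at 47 °C, and NC libraries from cells labelled wild-type and also held at 47 °C. R-47 and R-37 libraries came from wild-type cells of a separate design, held at 47 °C and at 37 °C to model sublethal heating after incomplete microwave ablation. Each group had 5 polyA RNA-seq libraries. Neither the number of shRNA sequences or clones behind the NFS1 group nor a control shRNA in NC is stated in the labels.

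Library totals ranged over 32219946 to 39689939 counts, and members took 0.0820 to 0.107% of them. NFS1, the cysteine desulfurase that the knockdown names, averaged 66.1 ± 3.01 CPM in NFS1 libraries and 72.5 ± 1.86 CPM in NC libraries (SD, n = 5 each), an adjusted p of 0.114 by edgeR's quasi-likelihood test. The target was thus not called lower, and NFS1 libraries are named by their label throughout. Of 8 hepatocyte markers, TTR stayed under 0.21 CPM and APOA1 under 1 CPM in every library, while HNF4A was at 40.9 CPM or more throughout. ALB averaged 0.630 CPM in NFS1, 0.847 in NC, 5.11 in R-47 and 14.2 in R-37 libraries. The summed CPM of that list was 179 to 189 in NFS1, 212 to 224 in NC, 120.2 to 129 in R-47 and 153 to 169 in R-37. FGB and HNF4A were its largest terms in every group, and the higher sums in NFS1 and NC rest on them. FGB averaged 105 CPM in NFS1, 101 in NC, 42.0 in R-47 and 53.5 in R-37 libraries. TF and SERPINA1 went the other way, like ALB. TF averaged 5.64, 10.7, 15.7 and 36.7 CPM in that order, and SERPINA1 0.574, 0.857, 2.37 and 5.85 CPM. APOB averaged 4.64, 6.79, 3.42 and 6.51 CPM. The cholangiocyte list summed to 9.24 to 13.1 CPM in NFS1, 11.2 to 14.5 in NC, 460.2 to 507 in R-47 and 390.4 to 535 in R-37, and KRT19 alone averaged 0.648, 0.791, 423 and 428 CPM in that order. Leukocyte markers summed to 129 to 151 CPM in NFS1, 119 to 128 in NC, 155 to 200.1 in R-47 and 82.6 to 93.5 in R-37, with PTPRC and CD3E under 1 CPM. Most of each sum was CD68, which averaged 136 CPM in NFS1, 120 in NC, 162 in R-47 and 79.4 in R-37 libraries. Intestinal markers summed to 188 to 263 CPM in NFS1, 274 to 340 in NC, 488 to 518 in R-47 and 548 to 567 in R-37, with CDX1 and MUC2 at or near 0. These lists moved with the groups, and their part in the results was not tested. The labels name the same cell line for every group, and a list named for a cell type does not show that such cells were present. In bulk RNA, fewer cells of a type and less RNA per cell cannot be told apart.

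The UGT1A genes can be told apart only at their 5′ end. In the GENCODE annotation of GRCh38, 9 UGT1A genes lie in a row on the plus strand of chromosome 2, each with its own opening exon joined to the same 4 downstream exons. UGT1A8 comes first (opening exon chr2:233617645-233618562) and UGT1A10 next (chr2:233636454-233637377), while UGT1A6 (chr2:233692866-233693865) and UGT1A1 (chr2:233760248-233761151) lie further along. The opening exons span 855 to 1000 bases, and 59.7 to 63.4% of each transcript's exonic bases are shared with another UGT1A gene. The 60 bases from the start codon are given 5′ to 3′ for the members the results turn on, with UGT1A7 as the remaining close relative, and capitals mark bases that differ from UGT1A10 at the same position.
UGT1A10: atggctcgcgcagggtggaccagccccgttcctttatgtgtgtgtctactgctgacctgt
UGT1A8: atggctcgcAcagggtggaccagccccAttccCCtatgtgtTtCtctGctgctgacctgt
UGT1A9: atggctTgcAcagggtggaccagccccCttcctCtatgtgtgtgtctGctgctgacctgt
UGT1A7: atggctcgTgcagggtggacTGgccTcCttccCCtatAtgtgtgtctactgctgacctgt
UGT1A1: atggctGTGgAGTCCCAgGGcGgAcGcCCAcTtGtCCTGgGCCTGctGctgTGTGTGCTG
UGT1A6: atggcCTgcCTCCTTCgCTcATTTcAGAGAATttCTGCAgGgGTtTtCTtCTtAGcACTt
UGT1A8, UGT1A9 and UGT1A7 differ from UGT1A10 at 7, 5 and 8 of these positions, and UGT1A1 and UGT1A6 at 39 and 40. Over the coding part of the opening exon UGT1A10 was 94.0% identical to UGT1A8, 92.0% to UGT1A9 and 53.7% to UGT1A1. How the authors counted reads in the shared exons is not given in the sources used here. Values of single UGT1A genes are therefore uncertain, most of all for UGT1A7, UGT1A8 and UGT1A9 beside the more abundant UGT1A10.

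Of the 65 members, 35 passed the low-count filter in at least 1 of 3 comparisons and 29 in all of them. The other 30 reached at most 14 counts in any library, and 15 of these never exceeded 2 counts. They include textbook hepatocyte enzymes: CYP3A4, the main intestinal and hepatic drug oxidase, had 49 counts over all 20 libraries, CYP2C8 had 45, CYP1A2 had 3 and CYP7A1, the rate-limiting enzyme of bile acid synthesis, had 4. Between 24 and 28 members averaged 1 CPM or more in a group, and 15 or 16 averaged 10 CPM or more. Among the tested members that were called in no comparison, CYP2D6, which oxidises many antidepressants, averaged 0.543 CPM in NFS1, 0.661 in NC, 0.868 in R-47 and 0.907 in R-37 libraries. UGT2B15, an androgen-conjugating enzyme, averaged 0.452 CPM in NFS1, 0.737 in NC, 0.600 in R-47 and 0.564 in R-37 libraries.

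The order of levels, on the FPKM scale that allows genes of different length to be compared, differed between the designs. In NFS1 libraries UGT1A1, the bilirubin-conjugating enzyme, led with 86.4 ± 11.1 FPKM, before CYP4F11, a fatty acid hydroxylase, with 47.7 ± 2.95, UGT1A6 with 38.8 ± 4.34 and CYP27A1 with 33.3 ± 2.97. In NC libraries the same leaders stood at 109 ± 9.80 (UGT1A1), 65.4 ± 4.06 (CYP4F11), 40.3 ± 3.06 (UGT1A6) and 27.4 ± 1.96 FPKM (CYP27A1). In R-47 libraries CYP27A1, the mitochondrial sterol 27-hydroxylase, led with 48.5 ± 3.22 FPKM, before UGT1A10 with 40.7 ± 1.37, CYP2S1 with 33.4 ± 2.20 and CYP24A1 with 30.7 ± 1.57. In R-37 libraries UGT1A10, an extrahepatic glucuronosyltransferase, led with 54.5 ± 3.13 FPKM, before CYP27A1 with 39.8 ± 3.28, CYP24A1 with 36.4 ± 1.49 and CYP2S1 with 33.3 ± 1.39 (SD, n = 5 for each value). Neighbours in these orders overlapped between CYP4F11 and UGT1A6 and between UGT1A6 and CYP27A1 in NFS1, between CYP2S1 and CYP24A1 in R-47, and among CYP27A1, CYP24A1 and CYP2S1 in R-37. Every other neighbouring pair among those named lay apart. The places of UGT1A genes in these orders are uncertain, since FPKM divides by a length in which most exonic bases are shared among them and how reads in the shared exons were counted is not given.

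**Figure D1:**
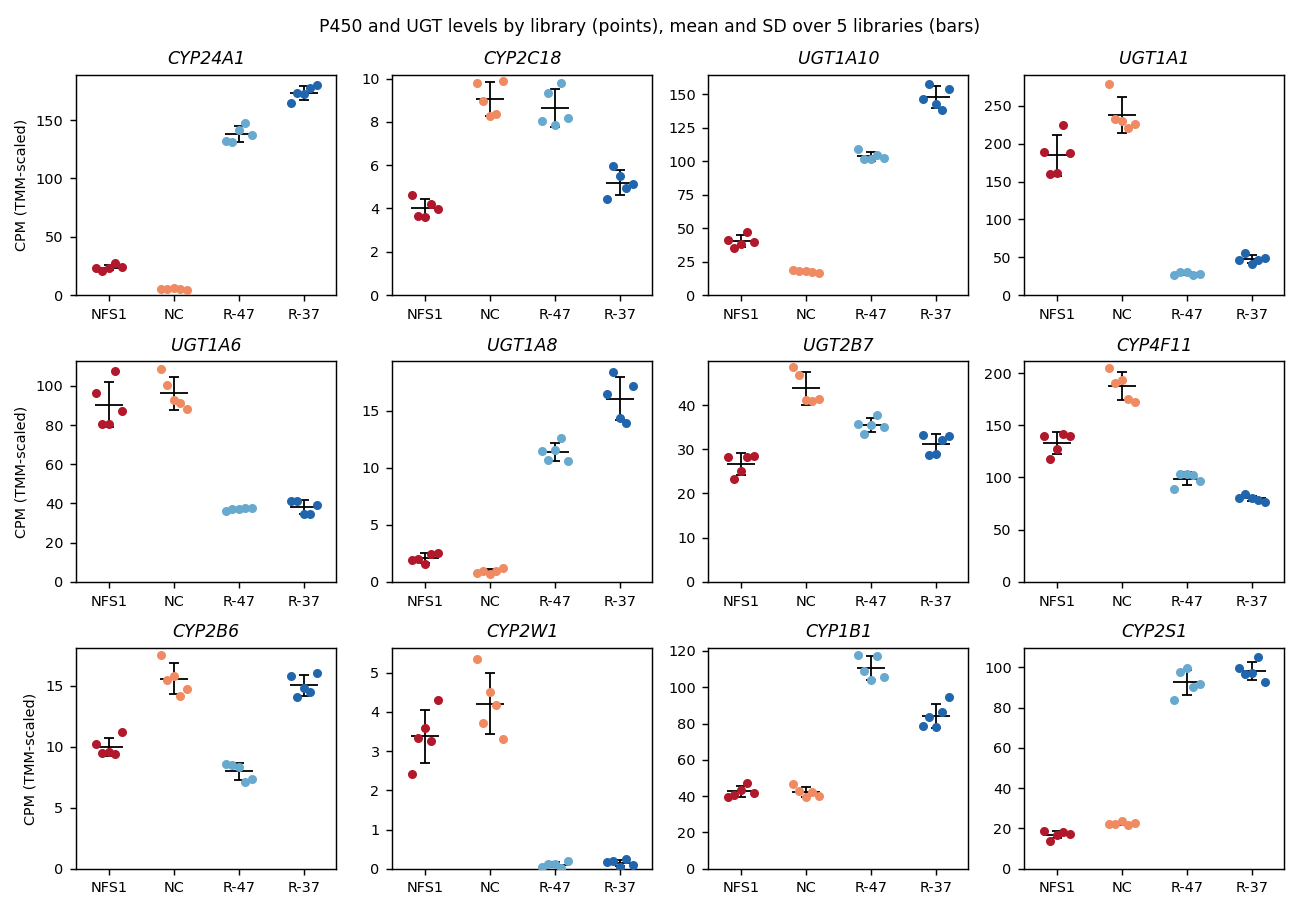
Levels of 12 members in each library (points, CPM scaled over all 20 libraries, linear axes from 0) with the mean and SD of 5 libraries, for NFS1, NC, R-47 and R-37. CYP24A1 sits at 4.38 to 27.0 CPM in NFS1 and NC libraries and at 131 CPM or more in R-47 and R-37 libraries, whereas CYP2C18 is highest in NC and R-47.

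The first comparison asked what a bath at 47 °C left behind in wild-type cells a day later. In R-47 libraries, vitamin D 24-hydroxylase CYP24A1, the barbiturate-inducible drug oxidase CYP2B6 and the glucuronosyltransferases UGT1A1, UGT1A10 and UGT1A8 were lower than in R-37 libraries, by 0.32 to 0.90 on the log2 scale. CYP2C18, CYP2E1, CYP1B1 and CYP4F11 were higher, by 0.32 to 1.34. Of 33 members tested, 7 were called higher and 5 lower at an adjusted p under 0.05 (edgeR's quasi-likelihood test), which is 36.4% of them. Over all 14344 genes tested, 25.1% were called, 11.9% higher and 13.2% lower. The median log2 fold change was 0.11 over the tested members and -0.01 over all genes.

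Among the vitamin D and bile acid enzymes, CYP24A1, which inactivates the hormone calcitriol (chr20:54143538-54173986), was at 132, 131, 141, 147 and 138 CPM in R-47 libraries, against 164, 173, 172, 177 and 180.3 CPM in R-37 libraries. Every R-47 library was below every R-37 library, and the log2 fold change was -0.32 ± 0.05 (SE, adjusted p = 2.0e-04). CYP27A1 rose by 0.21 on the log2 scale with overlapping groups (adjusted p = 0.028). That call was lost without R-37 replicate 2 or R-47 replicate 2, 3 or 5, with adjusted p of 0.0539 to 0.0802, and with length and GC offsets (0.0962), and the p ranged over 0.00364 to 0.0962 under all alternatives. CYP27B1, CYP2R1 and CYP39A1 of the same list were not called.

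Of the 14 drug-metabolising P450s of families 2 and 3, 7 were tested, 2 rose and 1 fell. CYP2B6 (chr19:40991282-41018398) was at 8.54, 8.47, 8.37, 7.12 and 7.37 CPM in R-47 libraries, against 15.7, 14.0, 14.8, 14.5 and 16.0 CPM in R-37 libraries. The groups lay far apart, with a log2 fold change of -0.90 and an SE of 0.08 (adjusted p = 1.2e-06). CYP2C18, the extrahepatic member of the CYP2C cluster on chromosome 10 (chr10:94683729-94736190, GRCh38.p14), was at 8.02, 9.32, 7.85, 9.80 and 8.18 CPM in R-47 libraries, against 4.41, 5.95, 5.52, 4.93 and 5.15 CPM in R-37 libraries. Here every R-47 library was the higher, and the log2 fold change was 0.74 ± 0.10 (SE, adjusted p = 1.3e-04). CYP2E1, the ethanol-inducible oxidase, was near the detection limit, at 0.930, 1.66, 0.845, 0.929 and 1.13 CPM in R-47 libraries, against 0.206, 0.538, 0.543, 0.315 and 0.565 CPM in R-37 libraries. Its groups did not overlap either, and its log2 fold change was 1.34 ± 0.31 (SE, adjusted p = 0.0052).

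CYP1B1, an oestrogen and carcinogen hydroxylase under control of the aryl hydrocarbon receptor, averaged 111 ± 6.38 CPM in R-47 libraries and 84.2 ± 6.66 CPM in R-37 libraries (SD, n = 5 each), a rise of 0.41 on the log2 scale (adjusted p = 2.2e-04). Its relative CYP1A1 averaged 3.02 ± 0.366 CPM in R-47 and 2.41 ± 0.494 CPM in R-37 libraries and was not called. CYP4F11 averaged 99.0 ± 6.06 CPM in R-47 and 79.9 ± 2.79 CPM in R-37 libraries, a rise of 0.32 (adjusted p = 3.8e-04), and it was the only called enzyme of 5 tested in the fatty acid list. CYP26B1, a retinoic acid hydroxylase, was called higher by 0.34 with overlapping groups (adjusted p = 0.019). Without R-47 replicate 3 the CYP26B1 call was lost (adjusted p = 0.0604, with 0.00526 to 0.0604 under all alternatives).

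Among 10 tested glucuronosyltransferases, 3 of the UGT1A locus fell and 1 outside it rose. UGT1A1 was at 26.8, 30.2, 31.0, 27.1 and 28.2 CPM in R-47 libraries, against 46.2, 55.5, 41.5, 46.5 and 49.1 CPM in R-37 libraries. UGT1A10 was at 109, 101, 102, 105 and 102 CPM in R-47 libraries, against 147, 158, 143, 139 and 154 CPM in R-37 libraries. UGT1A8 was at 11.5, 10.7, 11.6, 12.6 and 10.6 CPM in R-47 libraries, against 16.5, 18.4, 14.4, 13.9 and 17.2 CPM in R-37 libraries. None of these 3 overlapped between the groups, with log2 fold changes of -0.72 ± 0.07, -0.50 ± 0.05 and -0.49 ± 0.09 (SE) and adjusted p of 5.5e-06, 3.6e-06 and 9.4e-04. UGT1A6, which prefers small planar phenols, averaged 37.2 ± 0.630 CPM over R-47 libraries, against 38.1 ± 3.38 CPM over R-37 libraries (SD, n = 5 each) and was not called. UGT2B7, which conjugates morphine and steroids, was called higher by 0.20 (adjusted p = 0.030), 35.5 ± 1.50 CPM in R-47 and 31.2 ± 2.22 CPM in R-37 libraries. The UGT2B7 call was lost without any of 6 libraries (R-37 replicate 2 or 3, R-47 replicate 1, 3, 4 or 5), with adjusted p of 0.0526 to 0.0812, under the replicate block (0.0511), without the filter (0.0579) and in the fit of all 20 libraries (0.0503). It ranged over 0.00124 to 0.0812 under all alternatives.

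All 4 called genes of the 6 that supply or remove glucuronic acid were lower: UGP2 (-0.32), UGDH, which makes UDP-glucuronic acid (-0.18), the carrier SLC35B1 (-0.20) and the deglucuronidating enzyme GUSB (-0.19). Of 22 tested receptors and factors, NR1I2, the pregnane X receptor, rose by 0.86 to 5.98 ± 1.18 CPM in R-47, against 3.33 ± 0.586 CPM in R-37, and HNF4A rose by 0.28, while RARG and FOXA1 fell. Neither the vitamin D receptor VDR (13.2 ± 1.05 CPM in R-47 libraries, 13.5 ± 0.872 in R-37 libraries) nor the aryl hydrocarbon receptor AHR (147 ± 7.38 CPM in R-47 libraries, 149 ± 17.0 in R-37 libraries) was called. Among 9 electron donors, CYB5A and FDX2 rose and CYB5B fell, and of 12 haem genes BLVRB, BLVRA and FECH rose and HMOX1 fell (-0.40). Of 31 other conjugating and oxidising enzymes 2 rose and 7 fell, among them CES1 (-0.38), FMO5 (-0.46) and ALDH3A1 (-0.40). Of 14 transporters 2 rose and 7 fell: ABCB11, the bile salt export pump, rose by 1.01, and SLC51B, ABCG2 and SLC47A1 were among those that fell. Beside these counts, 5 of 7 tested hepatocyte markers fell and 1 rose, and 3 of 3 tested leukocyte markers rose. Of 4 tested cholangiocyte markers 1 rose and 1 fell, as did 1 each of 2 endothelial markers, while 1 of 4 intestinal markers fell and 1 of 3 fibroblast markers rose. The part of these lists was not tested. With libraries scaled by total count alone, 11 members were called higher and 5 lower, and without R-47 replicate 3 the calls were 4 higher and 5 lower. The share of higher calls was 68.8% with total counts and 58.3% with TMM.

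The second comparison set libraries labelled NFS1 knockdown against NC, all heated to 47 °C. CYP24A1, UGT1A10 and UGT1A8 were higher in NFS1 libraries, by 1.20 to 2.21 on the log2 scale, and UGT1A3, CYP3A5 and CYP27A1 rose less. CYP2C18, UGT2B7, CYP2B6 and most fatty acid hydroxylases were lower. Of 31 members tested, 6 were called higher and 12 lower, which is 58.1%, whereas 28.1% of all 15086 genes tested were called. By direction, 12.5% of all genes were called lower and 15.7% higher. The median log2 fold change was -0.26 over the tested members and 0.02 over all genes.

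CYP24A1 was at 23.0, 20.5, 23.0, 27.0 and 24.3 CPM in NFS1 libraries, against 5.59, 4.83, 5.82, 5.26 and 4.38 CPM in NC libraries. Every NFS1 library was more than 3 times the highest NC library, with a log2 fold change of 2.21 and an SE of 0.10 (adjusted p = 6.2e-09). VDR, whose activation induces CYP24A1, was at 21.9 ± 0.335 CPM in NFS1 and 21.2 ± 1.23 CPM in NC libraries and was not called, and its partner RXRA rose by 0.72 to 62.7 ± 9.43 CPM in NFS1, against 38.6 ± 5.37 CPM in NC. CYP27A1 rose by 0.27 with overlapping groups (adjusted p = 0.014). CYP27B1, which makes calcitriol, and CYP2R1, which makes its precursor, were not called.

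CYP2C18 was at 4.61, 3.67, 3.58, 4.22 and 3.98 CPM in NFS1 libraries, against 9.82, 8.95, 8.28, 8.35 and 9.87 CPM in NC libraries. The groups did not overlap, and the log2 fold change was -1.15 ± 0.10 (SE, adjusted p = 2.7e-06). The 565 tested genes of chromosome 10 had a median log2 fold change of 0.48 in this comparison, so CYP2C18 went against the chromosome it lies on. Its neighbour CYP2C19, 87.5% identical to it over the coding region, was below 1 CPM in both groups (0.328 ± 0.104 in NFS1 and 0.660 ± 0.210 in NC). Its lower call (adjusted p = 0.030) was lost without NFS1 replicate 1, 2 or 5 or NC replicate 1, 2 or 4 (0.0507 to 0.0761). The CYP2C19 call was also lost in a joint fit of the 20 libraries (0.0535), under the replicate block (0.0819) and without NFS1 replicates 2 and 3 together (0.110). The p ranged over 0.00942 to 0.110 under all alternatives. CYP2B6 averaged 9.96 ± 0.748 CPM in NFS1 and 15.5 ± 1.27 CPM in NC libraries, a fall of 0.62 (adjusted p = 8.7e-05). CYP3A5 rose by 0.43 (adjusted p = 0.0014).

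Of 6 tested fatty acid and eicosanoid P450s, 5 fell and none rose, whereas 12.5% of all genes tested were called lower. The median log2 fold change was -0.54 over these 6 and 0.02 over all genes. CYP4F11 averaged 133 ± 10.5 CPM in NFS1 and 187 ± 13.4 CPM in NC libraries, a log2 fold change of -0.47. CYP4F3, a leukotriene B4 hydroxylase, averaged 48.5 ± 4.34 CPM in NFS1 and 66.9 ± 3.69 CPM in NC libraries, a log2 fold change of -0.44. CYP4V2, a fatty acid hydroxylase linked to a retinal dystrophy, fell by 0.65, and CYP2U1, an arachidonic acid hydroxylase, fell by 0.60. CYP2J2, the arachidonic acid epoxygenase, averaged 0.177 ± 0.114 CPM in NFS1 and 0.501 ± 0.195 CPM in NC libraries. Its call (adjusted p = 0.024) was lost without NC replicate 5 or NFS1 replicate 2, with adjusted p of 0.0667 and 0.0564, and without NFS1 replicates 2 and 3 together (0.121), and ranged over 0.00906 to 0.121 under all alternatives. CYP4F12 was the member of the list not called. CYP4F11, CYP4F3 and CYP4F12 are 83.6 to 86.6% identical over their coding regions, so reads may be split between them.

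CYP1A1 fell by 0.62 (adjusted p = 0.023), to 1.03 ± 0.175 CPM in NFS1, against 1.61 ± 0.277 CPM in NC, whereas CYP1B1 averaged 42.6 ± 3.05 and 42.4 ± 2.75 CPM in the same order and was not called. The CYP1A1 call was lost without NC replicate 5 or NFS1 replicate 5 and with the replicate block, with adjusted p of 0.0682, 0.0573 and 0.0620. It was also lost without NFS1 replicates 2 and 3 together (0.0779), and without NFS1 replicate 4 and NC replicate 1 together (0.0579). Its adjusted p ranged over 0.00785 to 0.0779 under all alternatives. CYP2S1, an orphan P450, fell by 0.39 to 16.9 ± 1.86 CPM in NFS1, against 22.5 ± 0.683 CPM in NC.

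The UGT1A locus split in this comparison. UGT1A10 was at 40.9, 35.2, 37.9, 47.0 and 39.5 CPM in NFS1 libraries, against 18.5, 18.0, 17.6, 17.2 and 16.4 CPM in NC libraries. UGT1A8 was at 1.93, 2.02, 1.53, 2.42 and 2.54 CPM in NFS1 libraries, against 0.814, 0.946, 0.690, 0.956 and 1.19 CPM in NC libraries. Neither gene overlapped between the groups, and their log2 fold changes were 1.21 ± 0.08 and 1.20 ± 0.20 (SE, adjusted p = 3.2e-07 and 4.4e-04). UGT1A3 was at 1.53, 1.50, 1.08, 1.78 and 1.89 CPM in NFS1 libraries, against 0.761, 0.870, 0.817, 0.905 and 1.24 CPM in NC libraries. These overlapped at the edge, and UGT1A3 rose by 0.78 (adjusted p = 0.011). UGT1A1 went the other way, at 185 ± 26.5 CPM in NFS1 and 238 ± 23.5 CPM in NC libraries, a fall of 0.35 with overlapping groups (adjusted p = 0.012). Without NFS1 replicates 2 and 3 together that adjusted p was 0.0987, with a range of 2.6e-05 to 0.0987 under all alternatives. UGT1A6 averaged 90.4 ± 11.5 CPM in NFS1 and 96.2 ± 8.34 CPM in NC libraries and was not called. Outside the locus, UGT2B7 was at 28.3, 23.2, 25.1, 28.3 and 28.4 CPM in NFS1 libraries, against 48.6, 46.8, 41.1, 40.9 and 41.3 CPM in NC libraries. All NFS1 libraries were the lower, with a log2 fold change of -0.69 and an SE of 0.08 (adjusted p = 2.1e-05).

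**Figure D2:**
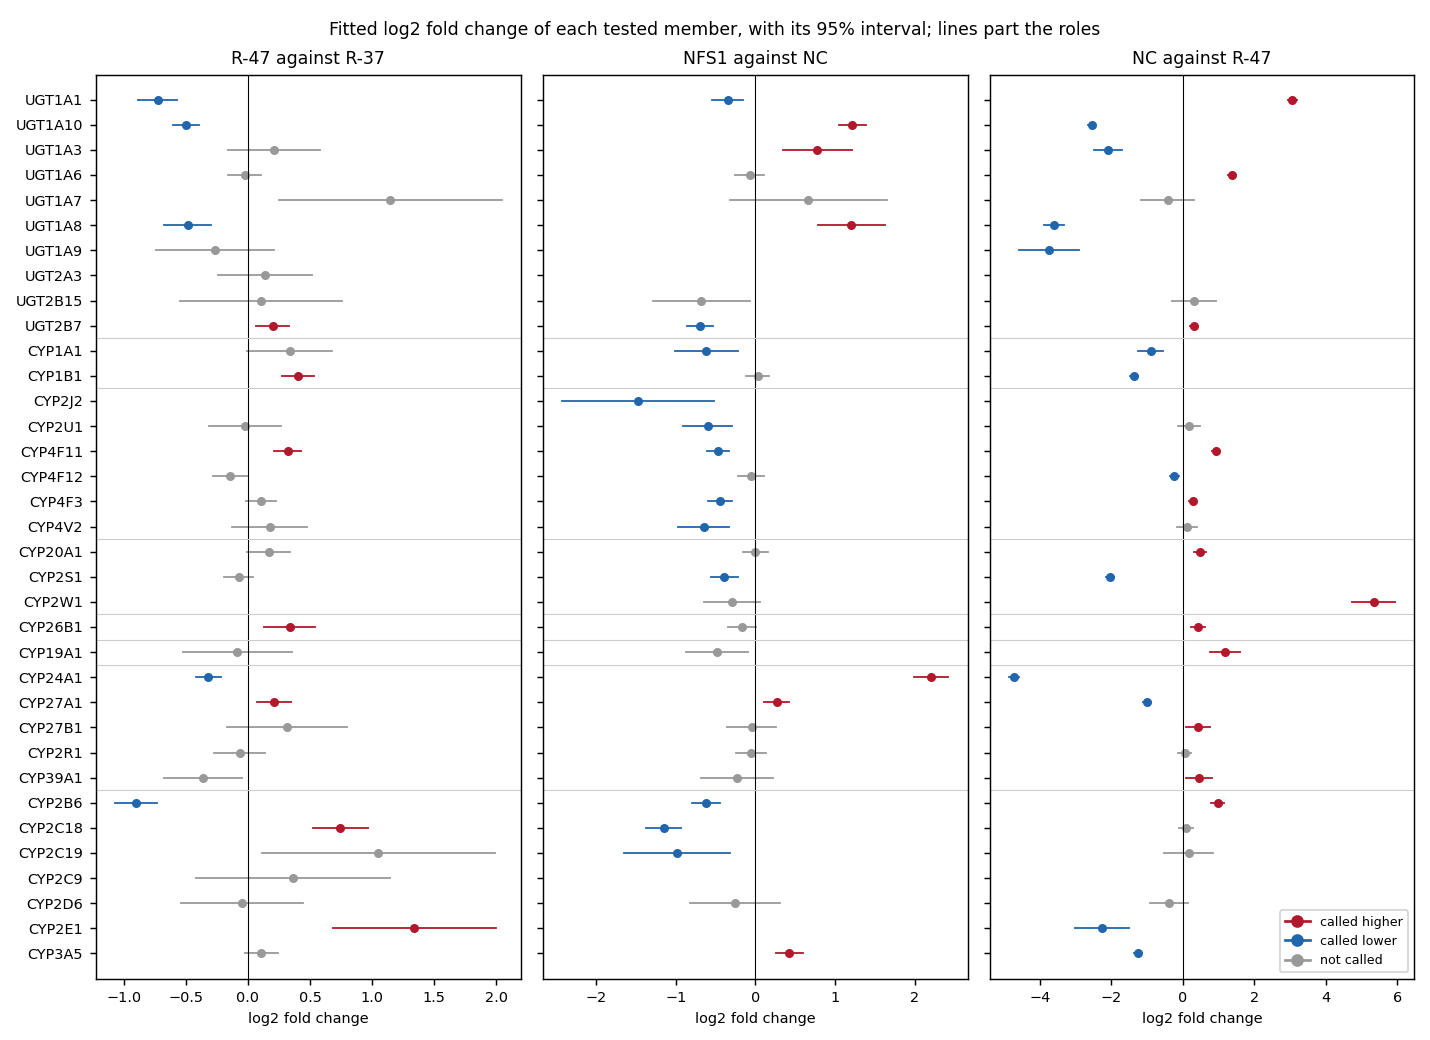
Fitted log2 fold changes (points) with 95% intervals (lines) of the tested members in the 3 comparisons, each panel on its own scale; a gene without a mark was not tested, and UGT2A3 is left out of the NC panel, where 1 count stands behind the NC value. Grey lines part, top to bottom, glycosyltransferases, family 1, fatty acid, orphan, retinoic acid, steroid, vitamin D and bile acid, and drug-metabolising P450s. In the NFS1 panel 5 of 6 fatty acid enzymes lie left of 0 as called, while 12.5% of all genes tested were called lower.

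Of 9 electron donors 3 fell and 1 rose in NFS1 libraries. PGRMC1, a haem-binding partner of P450s, fell by 0.60 to 114 ± 4.62 CPM in NFS1, against 174 ± 7.42 CPM in NC. FDX1, the iron-sulfur ferredoxin that feeds the mitochondrial P450s, fell by 0.46 to 26.9 ± 1.44 CPM in NFS1, against 37.7 ± 1.26 CPM in NC. Of 12 haem genes, 3 fell and 1 rose: FECH, which inserts the iron, and HMOX1 were among those that fell, each by 0.33, and UROS rose by 0.23. Of 21 tested receptors and factors 3 rose and 5 fell: HNF4A fell by 0.50, FOXA1 by 0.38 and CDX2 by 0.44, beside the rise of RXRA. UGDH alone of the 6 genes of glucuronic acid supply changed, by 0.25. Of 29 other conjugating and oxidising enzymes 3 rose and 6 fell, with SULT1C2, a sulfotransferase, at 1.10 and GSTO1 at 0.44 among the rises and ALDH3A1 at -0.43 and GSTP1 at -0.40 among the falls. Of 16 transporters 4 rose and 2 fell: ABCC2, which exports glucuronides into bile, rose by 0.62 to 381 ± 31.3 CPM in NFS1, against 251 ± 9.89 CPM in NC, SLCO4A1 rose by 0.78, and ABCB1, the P-glycoprotein pump, fell by 0.89. Beside these changes, 4 of 4 tested intestinal and 3 of 7 tested hepatocyte markers fell, and 2 of 3 tested leukocyte markers rose. Of the fibroblast and stellate markers, which summed to 34.7 to 56.7 CPM in NFS1 and 23.3 to 28.5 CPM in NC libraries, 1 of 4 tested rose, LUM by 0.78 (adjusted p = 0.0014), and none fell. LUM was at 51.6 CPM in NFS1 replicate 4, against 28.6 to 31.3 CPM in the other NFS1 libraries and 17.2 to 22.7 CPM in NC libraries. Of 3 tested endothelial markers (51.3 to 58.2 CPM in NFS1, 55.8 to 69.9 CPM in NC) and 3 tested cholangiocyte markers, 1 each fell and none rose. The part of these lists was not tested. Without NFS1 replicates 2 and 3, in which 20480 and 20427 genes had a count, against 19742 to 19879 in the other NFS1 libraries, 7 members were higher and 8 lower.

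The last comparison set the heated wild-type group of the knockdown design (NC) against that of the heating design (R-47). Both carry the same labels for line, genotype, bath and recovery, and design and group cannot be told apart. CYP24A1, UGT2A3, UGT1A8, UGT1A9, UGT1A10, CYP2S1 and CYP3A5 were much lower in NC libraries, and UGT1A1, UGT1A6 and CYP2W1 much higher. Of 33 members tested, 12 were called higher and 13 lower, which is 75.8%, near the 79.7% of all 15080 genes tested that were called (40.1% higher and 39.6% lower). The share called is thus no result about these families.

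CYP24A1 was at 5.59, 4.83, 5.82, 5.26 and 4.38 CPM in NC libraries, against 132, 131, 141, 147 and 138 CPM in R-47 libraries. The groups are more than an order of magnitude apart, with a log2 fold change of -4.72 and an SE of 0.07 (adjusted p = 4.9e-23). Its receptor VDR moved the other way, by 0.69, and RXRA fell by 2.17. CYP2C18 averaged 9.05 ± 0.768 CPM in NC and 8.63 ± 0.868 CPM in R-47 libraries, a log2 fold change of 0.08 with a 95% interval of -0.11 to 0.27. On scaling by total count alone CYP2C18 was called higher by 0.26 (adjusted p = 0.0142, with 0.0142 to 0.701 under all alternatives). The median over 570 chromosome 10 genes was -0.46.

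CYP2W1, an orphan P450 of fetal gut and colorectal tumours (chr7:983181-989640), was at 5.35, 3.71, 4.50, 4.17 and 3.32 CPM in NC libraries, against 0.0547, 0.113, 0.109, 0.0282 and 0.209 CPM in R-47 libraries. It was barely detected in every R-47 library, and the log2 fold change was 5.34 ± 0.29 (SE, adjusted p = 1.7e-13). CYP2S1 averaged 22.5 ± 0.683 CPM in NC and 92.5 ± 6.29 CPM in R-47 libraries, CYP1B1 42.4 ± 2.75 and 111 ± 6.38, CYP3A5 22.7 ± 0.710 and 54.7 ± 2.54, and CYP27A1 58.7 ± 4.22 and 119 ± 8.03 CPM in the same order. All 4 fell, by 1.00 to 2.03 on the log2 scale. CYP1A1 averaged 1.61 ± 0.277 CPM in NC and 3.02 ± 0.366 CPM in R-47 libraries and fell by 0.90. CYP2B6 averaged 15.5 ± 1.27 CPM in NC and 7.98 ± 0.674 CPM in R-47 libraries and rose by 0.97. CYP4F11 averaged 187 ± 13.4 CPM in NC and 99.0 ± 6.06 CPM in R-47 libraries and rose by 0.93, and CYP4F3 rose by 0.28. None of CYP1A1, CYP2B6, CYP4F11 and CYP4F3 overlapped between the groups. CYP20A1, CYP27B1, CYP26B1 and CYP39A1 rose by 0.42 to 0.47. The CYP39A1 call was lost without R-47 replicate 2 or 4 or NC replicate 1 (adjusted p 0.0519 to 0.131, with 0.00254 to 0.131 under all alternatives). CYP4F12 fell by 0.23, a call lost on scaling by total count (adjusted p = 0.472) and with length and GC offsets (0.379), with 0.00143 to 0.472 under all alternatives. CYP2E1 fell by 2.26, and CYP19A1, the aromatase, rose by 1.18 to 2.50 ± 0.456 CPM in NC, against 1.11 ± 0.233 CPM in R-47.

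UGT1A1 was at 279, 233, 230.2, 221 and 226 CPM in NC libraries, against 26.8, 30.2, 31.0, 27.1 and 28.2 CPM in R-47 libraries. UGT1A6 averaged 96.2 ± 8.34 CPM in NC and 37.2 ± 0.630 CPM in R-47 libraries. Both rose, by 3.06 ± 0.06 and 1.38 ± 0.06 (SE, adjusted p = 1.9e-20 and 1.0e-15). UGT1A8 was at 0.814, 0.946, 0.690, 0.956 and 1.19 CPM in NC libraries, against 11.5, 10.7, 11.6, 12.6 and 10.6 CPM in R-47 libraries. UGT1A9 was at 0.0525, 0.153, 0.0255, 0.151 and 0.0253 CPM in NC libraries, against 0.958, 0.845, 1.64, 1.13 and 1.13 CPM in R-47 libraries. Neither overlapped, and they fell by 3.61 and 3.74, with UGT1A10 falling by 2.55 and UGT1A3 by 2.11. UGT2B7 was called higher, at 48.6, 46.8, 41.1, 40.9 and 41.3 CPM in NC libraries, against 35.8, 33.5, 35.6, 37.7 and 35.1 CPM in R-47 libraries. Its groups did not overlap, and its log2 fold change ranged over 0.27 to 0.49 under all alternatives. UGT2A3 (chr4:68928463-68951804) was at 0, 0.0256, 0, 0 and 0 CPM in NC libraries, against 3.28, 3.04, 1.91, 2.96 and 3.01 CPM in R-47 libraries. NC libraries held 1 count in all and R-47 libraries 504, a ratio of R-47 over NC of 485 with an exact 95% interval of 86.7 to 19194 that covers counting error alone.

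Seen as shares of the summed FPKM of the 9 UGT1A genes, UGT1A1 made up 59.2 ± 0.797% in NFS1, 68.8 ± 0.988% in NC, 15.8 ± 1.10% in R-47 and 19.2 ± 1.04% in R-37 libraries (SD, n = 5 each). UGT1A10 made up 12.7 ± 0.465% in NFS1, 4.99 ± 0.274% in NC, 56.1 ± 1.47% in R-47 and 58.3 ± 1.22% in R-37 libraries. The sum itself was 146 ± 17.3 FPKM in NFS1, 158 ± 12.7 in NC, 72.5 ± 0.921 in R-47 and 93.6 ± 6.58 in R-37 libraries. Deposited FPKM is not scaled by TMM, so these sums also carry differences in scaling between groups. In CPM scaled by TMM the sum was 320 ± 42.8 in NFS1, 354 ± 31.6 in NC, 187 ± 2.16 in R-47 and 255 ± 17.1 in R-37. UGT1A8 counts were 4.03 to 6.43% of those of UGT1A10 in NFS1 and 3.92 to 7.26% in NC libraries, against 10.4 to 12.0% in R-47 and 10.02 to 11.7% in R-37 libraries.

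**Figure D3:**
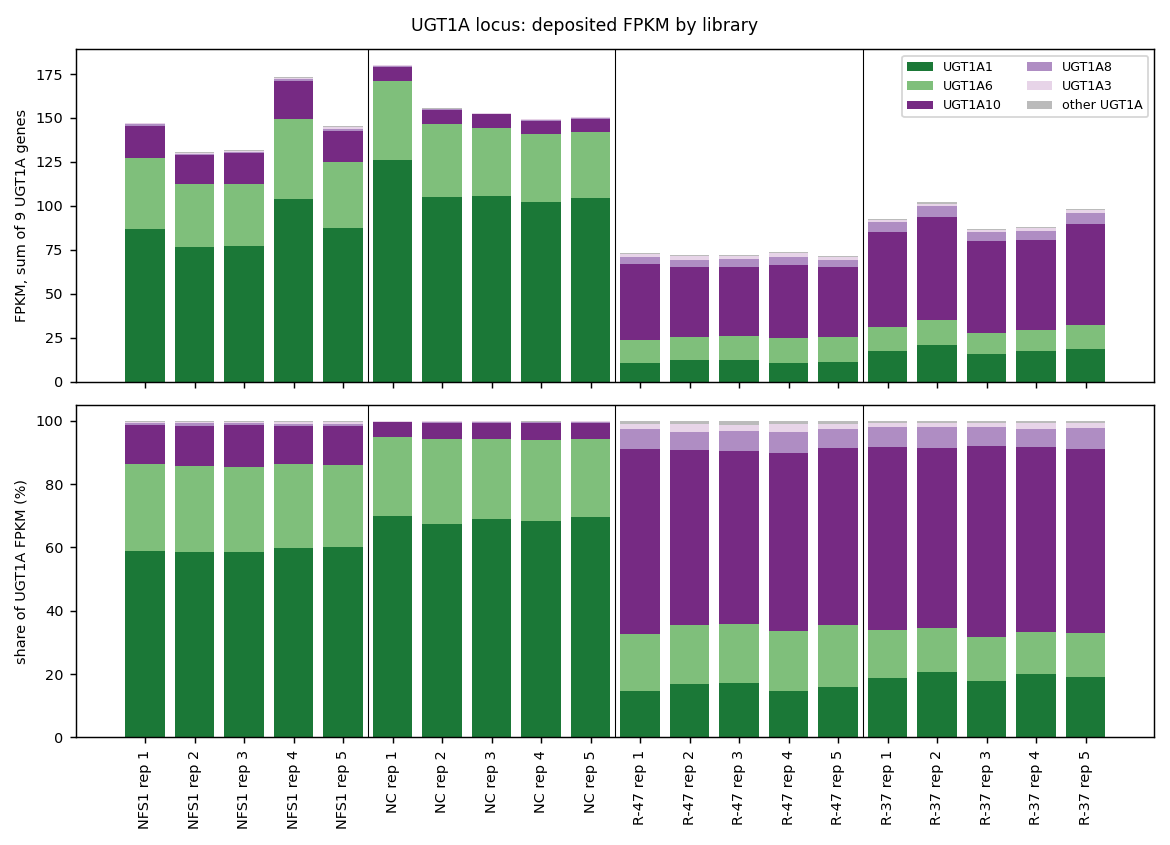
Deposited FPKM of the UGT1A genes in each of 20 libraries, without TMM scaling. Bars are stacked as a sum (top) and as a percentage of that sum (bottom), ordered NFS1, NC, R-47, R-37. UGT1A1 (dark green) makes up over 58% in every NFS1 and NC library and under 21% in every R-47 and R-37 library, where UGT1A10 (dark purple) leads.

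UGT1A8 and UGT1A9, which fell together here, are shown with a stretch from the 300 bases of RefSeq promoter around their start sites (GRCh38.p14, plus strand, chr2:233617567-233617636 and chr2:233671793-233671862), and capitals mark GCGTG, the core bound by the aryl hydrocarbon receptor, read on the reverse strand as CACGC.
UGT1A8: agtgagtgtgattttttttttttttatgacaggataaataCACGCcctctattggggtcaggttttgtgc
UGT1A9: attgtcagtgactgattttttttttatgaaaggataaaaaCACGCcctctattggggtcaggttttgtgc
The windows are 87.1% identical on alignment. GCGTG, searched on both strands, was in 36.5% of all 35116 promoters of 300 bases in the RefSeq table. Some genes have several promoters there: 40.6% of all 27305 gene symbols had GCGTG in 1 or more of theirs, as did 18 of the 49 members that have one there. AGGTCA, the letters nuclear receptors bind, was in 13.8% of all promoters, in 1 or more promoters of 16.5% of all symbols, and in 1 or more of those of 16 of these 49 members. A match is a description of letters and not a site, and its part in the falls of UGT1A8 and UGT1A9 was not tested. CYP24A1, CYP2C18 and UGT1A10 had no promoter there to search. AHR itself averaged 211 ± 19.1 CPM in NC and 147 ± 7.38 CPM in R-47 libraries.

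Among the genes around the enzymes, NR1H4, the bile acid receptor, fell by 5.13 in NC libraries to 0.301 ± 0.0713 CPM, against 10.8 ± 0.945 CPM in R-47, while TIPARP, a target and repressor of the aryl hydrocarbon receptor, rose by 0.94 and HNF4A by 0.81. Of 22 tested receptors and factors 8 rose and 10 fell. Of 9 electron donors 3 rose and 6 fell, POR, the reductase of microsomal P450s, by 0.64, and of 12 haem genes 4 rose and 8 fell. Of 16 transporters 2 rose and 12 fell, with ABCC3 at -2.07 and ABCC2 at -1.40, and of 31 other enzymes 7 rose and 16 fell, with SULT1C2 at -2.62. Of the 6 genes of glucuronic acid supply 4 fell, by 0.38 to 0.74. Beside these counts, 4 of 4 tested cholangiocyte and 3 of 3 tested leukocyte markers fell, 4 of 4 tested fibroblast markers rose, and 3 of 7 tested hepatocyte markers rose and 3 fell. LUM, the most abundant fibroblast marker, was at 20.2 ± 2.18 CPM in NC and 17.7 ± 1.34 CPM in R-47 libraries. Of 4 tested intestinal markers 1 rose and 2 fell, and of 3 endothelial markers 2 rose and 1 fell. Since 79.7% of all genes tested here were called (40.1% higher and 39.6% lower), the share called is no result about any of these lists. The part of these lists was not tested.

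The values of each marker, in comparisons that share the NC and R-47 libraries, stand side by side as follows. CYP24A1 changed by -0.32 with heat, by 2.21 in NFS1 libraries and by -4.72 between the heated wild-type groups. UGT1A10 changed by -0.50 with heat, by 1.21 in NFS1 libraries and by -2.55 between the heated wild-type groups. CYP2C18 changed by 0.74 with heat and by -1.15 in NFS1 libraries, and was not called between the heated wild-type groups.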

How the data were processed

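The authors deposited counts per gene symbol, whole numbers that were not normalised, and FPKM, which by the values of the files equals count over length and library total. The submitters' processing notes name hg38, fastp, HISAT2 and HTSeq; neither versions nor annotation nor strandedness was given in the sources used here. Each comparison used its 10 libraries, edgeR's filterByExpr (minimum count 10, total 15), TMM and the quasi-likelihood test, adjusted by Benjamini-Hochberg over all genes tested and called under 0.05. SE is the log2 fold change over the square root of F. Levels are CPM scaled by TMM over all 20 libraries. FPKM, which carries no TMM scaling, was used to compare genes and for the UGT1A shares and sums. It was not tested. R 4.3.3, edgeR 4.0.16 and DESeq2 1.42.0 were used; the test was checked on simulated counts.

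No label says whether the 5 libraries of a group are separate cultures; p-values then reflect only their spread, which may be technical. The members, role lists and pathway lists were chosen with earlier results of these data known. Named were the 3 marker genes, called members with a mean of at least 1 CPM (up to 15 by fold, values by library for the first 6), other tested members once, and up to 4 called genes of each pathway list by adjusted p. VDR and AHR, and KRT19, ALB and other genes of the marker lists, were named outside this rule, after their values were seen. Promoters came from RefSeq (GRCh38.p14), exons and transcripts from GENCODE, both of GRCh38. Alternatives were library size alone, DESeq2 size factors, no filter, a minimum count of 50, DESeq2, a joint fit of all 20 libraries, a block on replicate number, length and GC offsets, an adjusted p of 0.01, and each library left out; 2 sets of fewer libraries were added after seeing the data. Some results of the pathway lists are not reported here.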

Additional observations from a re-analysis of the deposited data

Results flagged for a closer look

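In 5 of 105 combinations of a tested member and a group averaging at least 1 CPM, 1 library stood apart from the other 4 by Dixon's criterion; chance gives about 1 in 20. CYP3A5 was at 36.3 CPM in NFS1 replicate 4, against 27.1 to 29.6 CPM in the other NFS1 libraries. UGT1A1 was at 279 CPM in NC replicate 1, against 221 to 233 CPM in the other NC libraries. CYP19A1 was at 1.70 CPM in NC replicate 5, against 2.62 to 2.84 CPM in the other NC libraries. CYP4F3 was at 59.1 CPM in R-47 replicate 2, against 54.2 to 55.3 CPM in the other R-47 libraries. UGT2A3 was at 1.91 CPM in R-47 replicate 3, against 2.96 to 3.28 CPM in the other R-47 libraries.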

How the results depend on the processing

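In R-47 against R-37 the 7 higher calls became 11 on scaling by total count alone and 4 at an adjusted p of 0.01; the lower calls stayed at 5 in both. With 1 library left out the counts were 4 to 8 higher and 5 to 6 lower, in NFS1 against NC 6 to 7 and 10 to 12, and in NC against R-47 12 to 13 and 13 to 14. Every other alternative kept each count within 1.5 times. Of the called members, 9 of 12, 14 of 18 and 23 of 25 kept direction and call at 0.05 in every setting testing them. Some settings gave a called member no adjusted p. Such gaps were passed over here and in the ranges given under all alternatives. Calls were lost for CYP26B1, CYP27A1 and UGT2B7 with heat and for CYP1A1, CYP2C19, CYP2J2 and UGT1A1 with NFS1. In NC against R-47 they were lost for CYP39A1 and CYP4F12. No called member changed direction in a setting that tested it. UGT1A6, not called, changed sign with heat on total count alone (log2 fold change 0.0497) and with 1 library left out (-0.0575 to 0.00553, above 0 without R-37 replicate 1 or 2), and in NFS1 against NC without NFS1 replicates 2 and 3 (0.0214). Same-numbered libraries deviated together at correlations of -0.23 to 0.15 and were not treated as pairs. Such correlations cannot tell whether these libraries were cultured or processed together. With the replicate block the counts were 6 higher and 5 lower, 6 and 10, and 12 and 13. Scaling by total count alone moved the median of all genes to 0.19 in NC against R-47, against 0.01 with TMM, and in R-47 against R-37 it gave 2977 higher and 1013 lower genes, against 1714 and 1890. Length and GC offsets, known for 90.3 to 92.7% of tested genes, gave 10 higher and 7 lower with heat and 6 and 16 in NFS1 against NC, where all lower genes numbered 3366, against 1881. Without NFS1 replicates 2 and 3, a setting chosen after seeing the data, all lower genes were 1147. Members under about 1 CPM are limited by depth.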
